A study of Leptinotarsa decemlineata with 6 samples.

Results

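Cytosolic ribosomal proteins were examined in transcriptomes of adult Colorado potato beetle (CPB, Leptinotarsa decemlineata). A gene was counted as one of them when its best Swissprot match was named as a 40S or 60S ribosomal protein, mitochondrial forms and kinases aside, and its mean reached 1 TPM in a group. TPM is a transcript level corrected for transcript length and scaled so that each library sums to 1000000. Of 236706 genes, 630 carried such a name, 533 of these stayed under 1 TPM in both groups (92 of them at 0 in every library), and 97 were kept. The level itself therefore chose the genes, and their abundance is a description only. Just inside the limit were an S18 gene (TRINITY_DN66222_c17_g1), with a mean of 1.07 TPM in the antibiotic group and 0.976 TPM in the non-treatment group, and an S26 gene (TRINITY_DN64367_c4_g1), with 1.09 TPM in the antibiotic group and 0.432 TPM in the non-treatment group. Just outside it were an L27a gene (TRINITY_DN57539_c2_g9), with 0.393 TPM in the antibiotic group and 0.994 TPM in the non-treatment group, and an L10 gene (TRINITY_DN65955_c2_g4), with 0.267 TPM in the antibiotic group and 0.979 TPM in the non-treatment group.

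The antibiotic group (3 libraries) came from adults that ate potato leaves soaked in a mixture of tetracycline, penicillin, ofloxacin, ciprofloxacin and ampicillin, for 3 days according to the methods. The non-treatment group (3 libraries) came from adults labelled as not treated. That label alone places these libraries, since their sample codes differ from the control code in the study's own comparison, and every difference given here rests on it. All beetles were collected in the field and labelled WT, and RNA was taken from whole heads, although the labels also write "olfactory cell". The antibiotic concentration behind these libraries, and whether each library is 1 beetle or a pool, are not stated in the labels or methods, so p-values measure only the spread between these samples.

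Each ribosome is built from a small (40S) subunit, which reads the messenger RNA, and a large (60S) subunit, which joins amino acids and feeds the new protein through its exit tunnel. Each protein is needed in about the same number of copies, and their genes are known for being expressed at high, coordinated levels in growing cells. In Drosophila, loss of a copy of many of these genes gives the Minute flies, with slow growth and short bristles. Ribosomal protein genes are also common reference genes in quantitative PCR of insects, and a gene written RP18 served that purpose in this study.

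The libraries differed in some tissue markers. In the limma comparison described below, 2.88% of all genes tested were called higher in the antibiotic group and 7.26% lower. Eye genes summed to 457 to 627 TPM in antibiotic and 131 to 147 TPM in non-treatment libraries (of 21 tested, 7 were called higher and 1 lower). Muscle genes summed to 31020 to 33400 TPM in antibiotic and 8534 to 14530 TPM in non-treatment libraries (20 of 55 higher, 3 lower). Gut digestion genes summed to 4625 to 8744 TPM in antibiotic and 7544 to 21190 TPM in non-treatment libraries (2 of 99 higher, 38 lower). Sperm and testis genes summed to 431 to 637 TPM in antibiotic and 413 to 1359 TPM in non-treatment libraries (2 of 29 higher, 21 lower). Olfactory neuron and antenna genes summed to 36.3, 45.8 and 213.7 TPM in antibiotic and 5.80, 4.40 and 6.65 TPM in non-treatment libraries (3 of 9 higher, 0 lower). The gut digestion sums and the sperm and testis sums overlapped between the groups. Neuron sums also overlapped, at 313 to 419.5 TPM in antibiotic and 393 to 469 TPM in non-treatment libraries (2 of 13 higher, 2 lower). Fat body sums overlapped too, at 2477 to 3611 TPM in antibiotic and 1943 to 3708 TPM in non-treatment libraries (0 of 8 called). The odorant receptor coreceptor gene, a defining marker of olfactory neurons, was listed at 0.175, 0.109 and 0.950 TPM in antibiotic libraries and at 0 in all non-treatment libraries. The tissue in a library and the treatment cannot be told apart, nor can fewer cells of a type and less RNA per cell. Whether these differences had a part in the values below was not tested.

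The 97 genes covered most of the ribosome. Of 79 standard protein names, 70 had a gene: 27 of 32 of the small subunit and 43 of 47 of the large subunit. S10, S12, S21, S27A, S30, L14, L22, L41 and P2 had no gene that met the rule. Small subunit proteins had 37 genes and large subunit proteins 60, including 2 of the acidic stalk (P0 and P1). The closest protein database match was a beetle for 72 genes, another arthropod for 20 and an organism outside the arthropods for 5. The gene ontology term for a structural part of the ribosome, which the rule did not use, was attached to 95 of 97.

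Most of the genes were very abundant. Means over the 6 libraries ran between 0.760 and 2388 TPM, with a median of 674.5 TPM. In all, 75 genes reached 100 TPM and 28 reached 1000 TPM, and 22 lay under 100 TPM. These 22 low genes held 0.519% of the total ribosomal protein TPM, and for 19 of them another gene of the same protein reached 100 TPM. The exceptions were L24 (58.0 TPM), L38 (1.47 TPM) and L29 (1.28 TPM), whose highest genes stayed at these means. Several genes shared 1 name in 21 cases, and in 11 of them the top gene held at least 95% of the TPM. The best-match name cannot tell paralogs, alleles and pieces of 1 transcript apart, and reads of near-identical copies may have been divided between them.

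The 6 most abundant genes by mean TPM are parts of both subunits. The highest was L23A (TRINITY_DN57230_c4_g4), a protein at the rim of the exit tunnel where signal recognition particle docks. It had 1951, 3001 and 2129.5 TPM in antibiotic replicates 1, 2 and 3, and 2180.01, 2523 and 2546 TPM in non-treatment replicates 1, 2 and 3. S8 (TRINITY_DN63421_c3_g1), of the small subunit, had 1576, 2276 and 1722 TPM in antibiotic libraries and 1696, 1909.8 and 2019.8 TPM in non-treatment libraries. The groups overlapped for both genes, and antibiotic replicate 2 was the highest library. L39 (TRINITY_DN65715_c5_g1), a very small protein that lines the exit tunnel, had 1699, 1974 and 1485 TPM in antibiotic and 1506, 2117 and 1714 TPM in non-treatment libraries, so that here a non-treatment library was the highest. S19, whose human form is mutated in Diamond-Blackfan anaemia, averaged 1782 ± 571 TPM in antibiotic and 1525 ± 200.2 TPM in non-treatment libraries (SD, n = 3 each). L7A averaged 1701 ± 620.0 TPM in antibiotic and 1478 ± 201 TPM in non-treatment libraries, and L30 averaged 1632 ± 337 TPM in antibiotic and 1534 ± 151 TPM in non-treatment libraries. The log2 differences of these 6 genes lay between -0.06 (L23A) and 0.18 (S19). Their order rests on the length correction in TPM, and lengths of the assembled transcripts were not examined. In antibiotic replicate 2, for example, L23A had 15174 deposited fragments and L30 had 29577.

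To ask whether the ribosomal protein genes as a whole took a larger or smaller part of the transcriptome after antibiotic feeding, their TPM were summed. The sum was 53589, 91740.2 and 63510.3 TPM in antibiotic replicates 1, 2 and 3, and 58056, 61523 and 71982 TPM in non-treatment replicates 1, 2 and 3. That is 5.36%, 9.17% and 6.35% of all TPM in antibiotic libraries and 5.81%, 6.15% and 7.20% in non-treatment libraries. The highest and the lowest library both belonged to the antibiotic group. The means were 69613 ± 19794 TPM in the antibiotic group and 63854 ± 7250 TPM in the non-treatment group (SD, n = 3 each), a ratio of 1.09 or a log2 ratio of 0.12, which is smaller than the spread between libraries. Without antibiotic replicate 2 the direction turned, with a log2 ratio of -0.12.

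**Figure D1:**
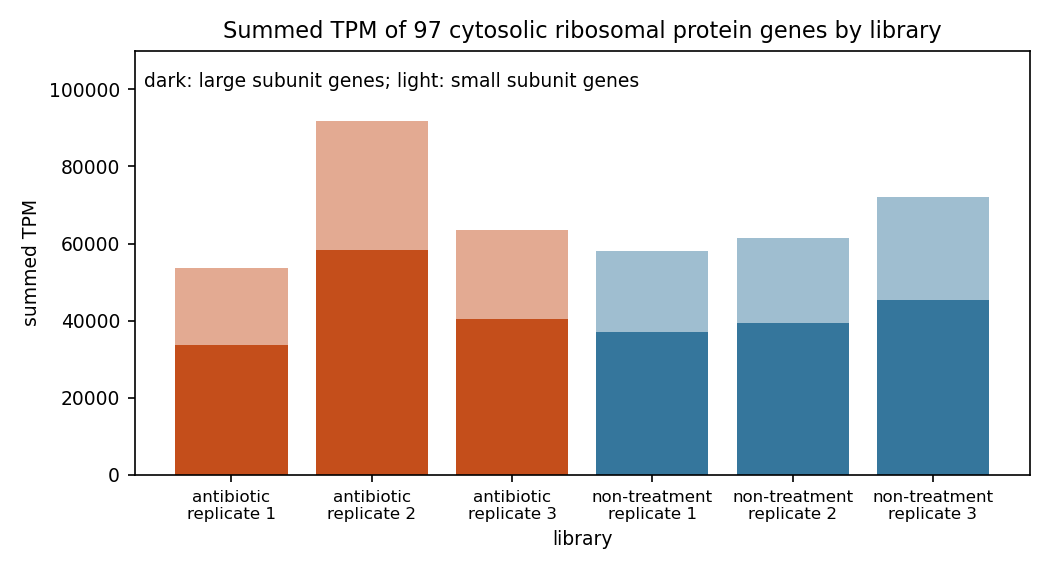
Summed TPM of the 97 ribosomal protein genes in each library (antibiotic in orange at left, non-treatment in blue at right), with large subunit genes in dark and small subunit genes in light shade. Antibiotic replicate 2 is the highest at 91740.2 TPM and antibiotic replicate 1 the lowest at 53589 TPM, and the non-treatment libraries lie between them.

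The subunits kept their proportion. The small subunit genes averaged 25450 ± 7068 TPM in the antibiotic group and 23290 ± 2910.4 TPM in the non-treatment group, and the large subunit genes without the stalk averaged 42154 ± 11956 TPM in the antibiotic group and 38816 ± 3938 TPM in the non-treatment group. With the stalk counted in the large subunit, the ratio of small to large subunit TPM was 0.585, 0.572 and 0.575 in antibiotic libraries and 0.569, 0.566 and 0.585 in non-treatment libraries. It thus stayed within a narrow range in libraries whose totals differed widely. The stalk genes P0 and P1 summed to 2009 ± 773 TPM in antibiotic and 1748 ± 405 TPM in non-treatment libraries.

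Most single genes followed much the same order of libraries. For the 75 genes of at least 100 TPM, the median shift of a library from each gene's mean log2 TPM was -0.29, 0.50 and -0.07 in antibiotic replicates 1, 2 and 3, and -0.15, -0.08 and 0.12 in non-treatment replicates 1, 2 and 3. Antibiotic replicate 2 was the highest library for 73 of the 75 genes, and antibiotic replicate 1 the lowest for 52. The mean TPM was higher in the antibiotic group for 58 of the 75 genes, but for 8 of the 75 when antibiotic replicate 2 was left out. Over the 6 libraries the median correlation between the log2 levels of these genes was 0.875 (Pearson's r, 2775 pairs of genes, n = 6 libraries), a description of genes that share the same libraries and scaling. Pairs ran between -0.28 and 0.999, and 68.5% were over 0.8. The lowest correlations with the mean of the other genes were 0.265 for an L23A gene (TRINITY_DN60076_c5_g1) and 0.377 for L39 (TRINITY_DN65715_c5_g1).

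**Figure D2:**
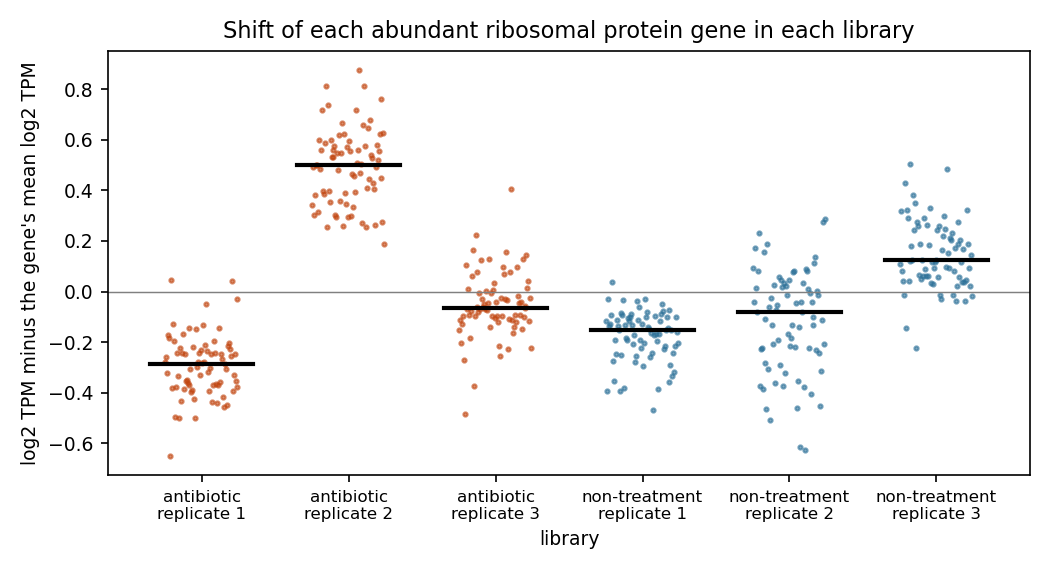
Each point is 1 of the 75 ribosomal protein genes of at least 100 TPM, drawn as its log2 TPM in a library minus its mean log2 TPM over the 6 libraries, and the black bar is the library's median. The medians run between -0.29 in antibiotic replicate 1 and 0.50 in antibiotic replicate 2, wider than between the non-treatment libraries (-0.15 to 0.12).

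Within groups, these genes were spread more widely among antibiotic than among non-treatment libraries. Their median coefficient of variation (SD over mean) was 0.292 in the antibiotic group, 0.131 in the non-treatment group and 0.217 over all 6 libraries. The 861 other genes of at least 100 TPM had medians of 0.240, 0.262 and 0.341. The steadiest were S29 (coefficient of variation 10.7% over 6 libraries), S25 (11.8%) and L23 (12.1%), and the most variable were P1 (43.6%), an L4 gene (40.4%) and an S18 gene (39.4%), all picked after their values were seen. S29 (TRINITY_DN47423_c0_g1), a small protein of the small subunit head, had 1258, 1669.8 and 1268 TPM in antibiotic and 1359.7, 1431 and 1428 TPM in non-treatment libraries.

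The groups were then compared gene by gene, with limma on log2(TPM + 1) over all 33919 genes with a mean of at least 1 TPM in a group, where a gene was called at a Benjamini-Hochberg adjusted p under 0.05 and a difference is antibiotic minus non-treatment. Of the 97 ribosomal protein genes, 1 was called, lower in the antibiotic group, against a background of 10.1% of all genes tested (2.88% higher and 7.26% lower). None was called higher, and the gene that was called met the level limit only through the non-treatment group. At an unadjusted p under 0.05, 0 members were higher and 3 lower, against 8.09% and 16.2% of all genes tested. In the count tests on 5 libraries, edgeR called 1 of 94 members (background 8.85%) and DESeq2 1 of 96 (background 2.46%), each time the same L17 gene. edgeR without a count filter called 4 of 96 (background 3.67%), and limma called 2 of 97 when every library was scaled to an equal ribosomal protein total (background 8.61%). The backgrounds of 2.46% and 3.67% are over 185440 genes with any count, many of them too low to enter the limma fit. They are therefore not like the other backgrounds, nor like members chosen for their level.

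Among the 75 genes of at least 100 TPM, 0 were called, against 19.6% of all 936 tested genes of that level, and their groups overlapped in 75 of 75. Their differences ran between -0.28 and 0.52 on the log2 scale, with a median of 0.10. Adjusted p from limma were 0.459 or more. Over all 97 the median difference was 0.06 (0.10 for small and 0.06 for large subunit genes), and its median size without sign was 0.14. All genes tested had a median of -0.09 and a median size of 0.40, and the 861 other genes of at least 100 TPM had 0.19 and 0.54. Of the 75, 57 lay above 0 in TPM and 71 with median-of-ratios scaling, where the median of all genes was -0.002. In the count tests 72 lay above 0, with medians of 0.32 in DESeq2 and 0.29 in edgeR. Those tests lack antibiotic replicate 1, the lowest library for 52 of the 75. Without antibiotic replicate 2, 7 of the 75 lay above 0, and the median of all genes was -0.19. An equal ribosomal protein total in every library sets the members near 0 by its construction (38 of the 75 above 0), and the median of all genes was then -0.17.

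A missed threshold does not show that levels were alike, so the 95% intervals were read as well. For 81 of the 97 genes (83.5%) the limma interval of the difference lay wholly within 1 log2 unit either way, that is, within a doubling or halving, against 38.1% of all genes tested. At 100 TPM or more it did so for 66 of 75 (88.0%), against 40.5% of tested genes at that level. The 75 genes shifted together between libraries, so these are not 66 separate observations. Intervals were read in the main TPM fit only. The median interval of the 75 genes was 1.28 log2 units wide between its ends.

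**Figure D3:**
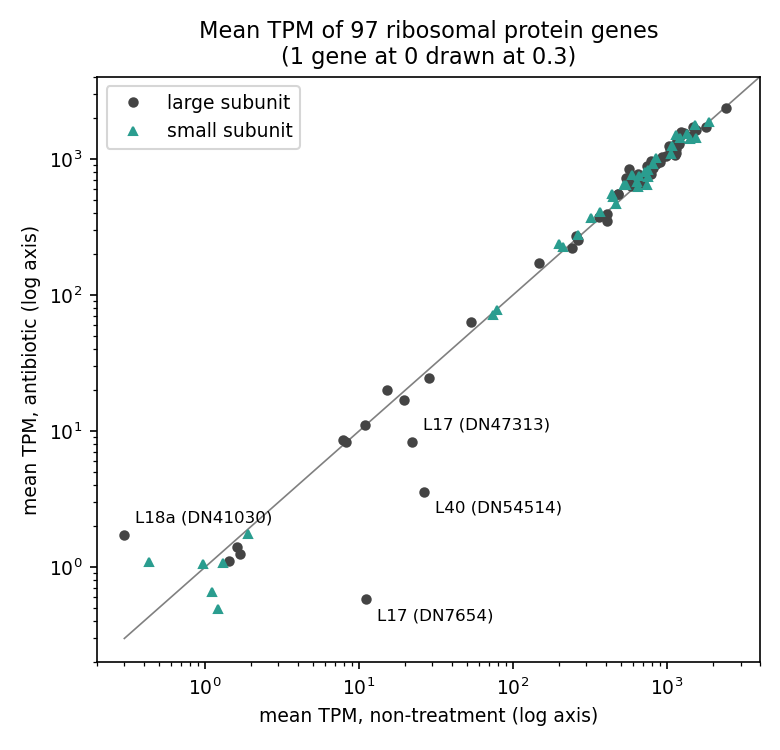
Mean TPM of each of the 97 genes in the antibiotic group (vertical, log axis) against the non-treatment group (horizontal, log axis), with large subunit genes as circles and small subunit genes as triangles, and the diagonal marking equal means. Genes of at least 100 TPM lie along the diagonal, and the low L17 gene TRINITY_DN7654_c0_g1, with 0.583 TPM in antibiotic and 11.2 TPM in non-treatment libraries, lies farthest below it.

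Small subunit proteins with roles in decoding and signalling overlapped between the groups. S3, which lines the channel where messenger RNA enters, had 709, 1358 and 994 TPM in antibiotic and 849, 710.04 and 993 TPM in non-treatment libraries, a log2 difference of 0.23 (95% interval -0.48 to 0.93). S6, the protein that S6 kinase phosphorylates downstream of TOR, had 489, 855 and 567 TPM in antibiotic and 490.01, 526 and 620.3 TPM in non-treatment libraries, a difference of 0.19 (-0.44 to 0.82). SA, the laminin receptor-related protein, averaged 826 ± 298 TPM in antibiotic and 751 ± 164 TPM in non-treatment libraries, a difference of 0.10.

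S18 and L18, which share the number in the name of the reference gene RP18, were of separate interest. The name does not say which subunit is meant. L18 (TRINITY_DN52564_c5_g4), of the large subunit, had 1179, 1872 and 1337 TPM in antibiotic and 1369, 1452 and 1462 TPM in non-treatment libraries. The means were 1463 ± 364 TPM in antibiotic and 1427 ± 50.7 TPM in non-treatment libraries (SD, n = 3 each), a log2 difference of 0.01 (limma 95% interval -0.61 to 0.62, adjusted p = 0.990). The S18 gene with the largest mean TPM (TRINITY_DN60849_c0_g3), a protein of the small subunit head, had 660.5, 948 and 782 TPM in antibiotic libraries. In non-treatment libraries it had 725.5, 522 and 898 TPM, a difference of 0.18 (-0.48 to 0.83, limma adjusted p = 0.751). A second S18 gene (TRINITY_DN66222_c17_g2) had 449, 1116 and 713 TPM in antibiotic and 484, 460.1 and 829 TPM in non-treatment libraries, a difference of 0.32 (-0.60 to 1.23). This second gene had more deposited fragments than the first in each library with counts, as in antibiotic replicate 2 (16165 against 4291). TPM therefore does not settle which gene stands for S18. The ratio of the first S18 gene to the second was not fixed: it was 1.47, 0.850 and 1.10 in antibiotic and 1.499, 1.13 and 1.08 in non-treatment libraries.

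Large subunit proteins that mark steps of ribosome assembly also overlapped between groups. L5 and L11, which bind 5S ribosomal RNA together, had differences of 0.24 (95% interval -0.56 to 1.03) and 0.01 (-0.66 to 0.67). L5 had 630.4, 1348 and 900.5 TPM in antibiotic and 719.99, 636 and 1019 TPM in non-treatment libraries, whereas L11 had 845, 1553 and 1062 TPM in antibiotic and 1017, 1159.5 and 1164 TPM in non-treatment libraries. L10, one of the last proteins to join the large subunit in the cytoplasm, averaged 1099 ± 324 TPM in antibiotic and 1113 ± 112 TPM in non-treatment libraries, a difference of -0.05. L32 (TRINITY_DN66236_c45_g2), often a reference gene in fly work, averaged 1062 ± 246 TPM in antibiotic and 1121 ± 173 TPM in non-treatment libraries. The difference was -0.09. The closest protein database match of this gene was outside the arthropods (Anas platyrhynchos), although its Swissprot match was from Spodoptera frugiperda. Whether it is a beetle L32 gene was not tested.

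The stalk proteins recruit elongation factors to the ribosome. P0 had 905, 1776 and 1178 TPM in antibiotic and 1002, 1229 and 1379.5 TPM in non-treatment libraries, a difference of 0.05 (95% interval -0.68 to 0.78). P1 had 434, 1079 and 656 TPM in antibiotic and 425, 384 and 824 TPM in non-treatment libraries, a difference of 0.40 (-0.58 to 1.38, limma adjusted p = 0.615). P1 was the most variable abundant gene in the set, and the groups overlapped. It passed only in edgeR without a count filter, with a difference of 0.75 and an adjusted p of 0.0472.

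L4, whose long extension reaches into the exit tunnel, gave the largest positive difference among genes of at least 100 TPM. TRINITY_DN59256_c3_g2 had 485, 1157 and 872 TPM in antibiotic and 505, 427 and 774 TPM in non-treatment libraries, a log2 difference of 0.52 (limma 95% interval -0.37 to 1.41, adjusted p = 0.459). The other L4 gene (TRINITY_DN65073_c0_g5) had 409, 948 and 540.3 TPM in antibiotic and 485, 442 and 817 TPM in non-treatment libraries, a difference of 0.09. The ratio of the first to the second was 1.19, 1.22 and 1.61 in antibiotic and 1.04, 0.966 and 0.947 in non-treatment libraries, so that it was higher in each antibiotic library, a contrast seen after the values were known and given with no test. L4 was picked from all names with several genes of at least 100 TPM. For the others (L3, L8, L10A, L13A, L23A, S18 and S28) the ratio overlapped between the groups. The pair of L3 genes, of the peptidyl transferase centre, kept a steadier ratio of 0.987, 1.06 and 1.02 in antibiotic and 0.979, 0.942 and 1.07 in non-treatment libraries.

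**Figure D4:**
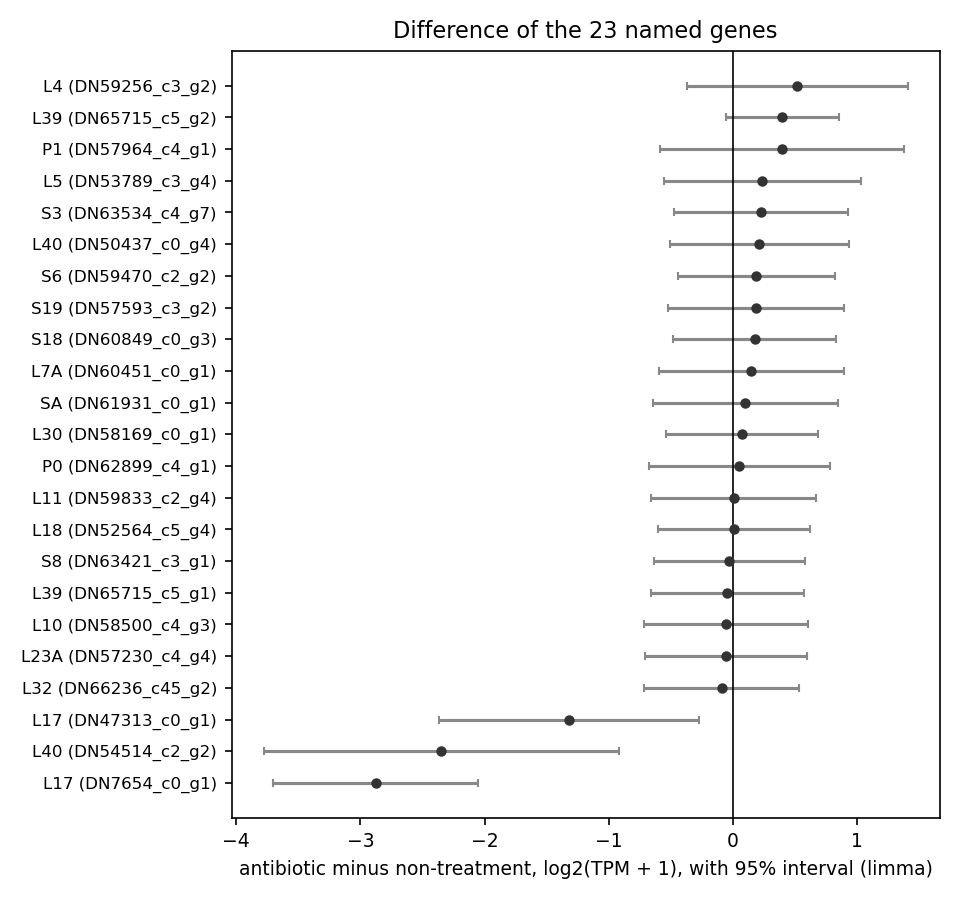
Log2 difference (antibiotic minus non-treatment, on log2(TPM + 1)) of the 23 named genes, with limma's 95% intervals. All but the 3 lowest genes have intervals that span 0; the lowest is the L17 gene TRINITY_DN7654_c0_g1 at -2.88 (-3.70 to -2.05).

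The gene that was called was a minor gene for L17, a protein at the opening of the exit tunnel. TRINITY_DN7654_c0_g1, closest to an L17 of the beetle Oryctes borbonicus, had 0.545, 0.904 and 0.299 TPM in antibiotic and 13.9, 13.8 and 5.87 TPM in non-treatment libraries. The groups were well apart. By the deposited estimates, 19 and 6 fragments were counted in antibiotic replicates 2 and 3 and 263, 268 and 125 fragments in non-treatment replicates 1, 2 and 3. The log2 difference was -2.88 (SE 0.35, limma adjusted p = 0.00288), and the mean TPM of the antibiotic group was 0.0521 of that of the non-treatment group. It was lower in each of 18 alternatives that tested it as a gene of its own, with differences between -4.24 and -1.49, and was called in each. These alternatives reuse the same libraries and are not separate support. The gene met the level limit only through the non-treatment group, where it was higher.

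The other L17 genes stood differently. TRINITY_DN47313_c0_g1 had 4.19, 12.96 and 7.97 TPM in antibiotic and 29.4, 25.5 and 11.6 TPM in non-treatment libraries, a difference of -1.32 (95% interval -2.37 to -0.28) that did not pass (limma adjusted p = 0.117), and antibiotic replicate 2 overlapped with non-treatment replicate 3. The main L17 gene (TRINITY_DN60456_c2_g4), which carried most of the L17 transcripts, had 1074.5, 2290.4 and 1364 TPM in antibiotic and 1084, 1086 and 1541 TPM in non-treatment libraries, a difference of 0.30 (adjusted p = 0.649). When genes with the same protein name were summed, 0 of 70 proteins were called by limma, against a background of 10.1% of the features in that fit, and L17 was among those not called.

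L40 is made as a fusion with ubiquitin and is cut free. A low L40 gene (TRINITY_DN54514_c2_g2) had 2.65, 6.23 and 1.83 TPM in antibiotic and 12.6, 55.5 and 11.9 TPM in non-treatment libraries. Its closest protein database match was outside the arthropods (Alligator mississippiensis), although its Swissprot match was from Drosophila melanogaster. Whether it is a beetle L40 gene was not tested. The groups did not overlap, and the difference was -2.35 (95% interval -3.78 to -0.92, limma adjusted p = 0.0534). It passed in 5 of 18 alternatives, among them a minimum of 5 TPM (adjusted p = 0.0439). The main L40 gene (TRINITY_DN50437_c0_g4) had 1126, 2132 and 1380.3 TPM in antibiotic and 1281, 1106 and 1499.7 TPM in non-treatment libraries, a difference of 0.21. Another gene (TRINITY_DN59715_c0_g2), also with a closest match outside the arthropods (Oryzias melastigma), had 10.5, 13.7 and 9.06 TPM in antibiotic and 9.46, 12.8 and 10.6 TPM in non-treatment libraries.

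**Figure D5:**
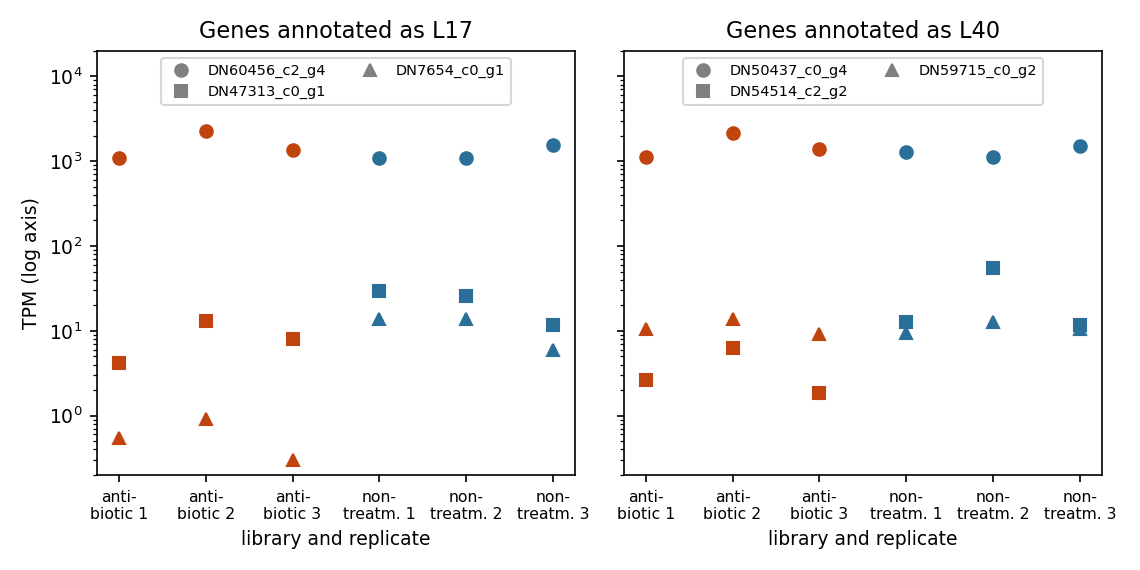
TPM (log axis) of each gene annotated as L17 (left panel) or L40 (right panel) in each library, antibiotic in orange and non-treatment in blue, with a marker shape per gene. The main genes stay above 1000 TPM in all libraries, whereas TRINITY_DN7654_c0_g1 of L17 and TRINITY_DN54514_c2_g2 of L40 are lower in every antibiotic library than in any non-treatment library.

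Sums of tissue markers are given beside these low genes. The sperm and testis genes summed to 431, 462 and 637 TPM in antibiotic and 1359, 1047 and 413 TPM in non-treatment libraries, and 37 of their 82 genes were at 0 in all antibiotic libraries, against 8 in all non-treatment libraries. Non-treatment replicate 3, the lowest of its group in this sum, was also the lowest of its group for both low L17 genes. Its sperm and testis sum lay below every antibiotic library, and its TPM of TRINITY_DN7654_c0_g1 (5.87) lay above every antibiotic library (0.299 to 0.904). The gut digestion genes summed to 4625, 8744 and 6363 TPM in antibiotic and 7544, 21190 and 8568 TPM in non-treatment libraries, and non-treatment replicate 2, the highest, was also the highest for the low L40 gene. Antibiotic replicate 2 lay above non-treatment replicates 1 and 3 in the gut digestion sum and below both for the low L40 gene. The part of other tissues in these results was not tested.

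Groups that did not overlap were found for 1 gene higher in the antibiotic libraries (background 10.5% of genes tested) and 4 lower (background 19.8%). The higher was a minor L39 gene (TRINITY_DN65715_c5_g2), with 20.7, 20.5 and 19.1 TPM in antibiotic and 17.2, 15.9 and 12.5 TPM in non-treatment libraries, a difference of 0.40 (limma adjusted p = 0.267). The 4 lower were the L17 and L40 genes above and, named after their values were seen, low S3A (TRINITY_DN53637_c6_g5) and S7 (TRINITY_DN56196_c3_g3) genes of under 2 TPM in both group means. The S3A gene averaged 0.662 TPM in the antibiotic group and 1.11 TPM in the non-treatment group, and the S7 gene averaged 0.495 TPM in the antibiotic group and 1.22 TPM in the non-treatment group. Both met the level limit of 1 TPM only through the group in which they were higher, as did the L17 gene. The place of these genes in this count therefore rests on the limit. An L18A gene (TRINITY_DN41030_c0_g1), whose Swissprot match is a yeast protein, was at 5.19 TPM in antibiotic replicate 1 and at 0 in the other 5 libraries.

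Other genes of the translation machinery, grouped by annotation, were read from the same limma fit. There 10.1% of all genes tested were called (2.88% higher and 7.26% lower), and their median difference was -0.09. For the short lists, 0 calls cannot be told apart from that share. Initiation and release factors had 0 of 39 called and a median difference of -0.02, and aminoacyl-tRNA synthetases, which charge tRNAs, had 0 of 27 and -0.01. Elongation factors, which carry tRNAs to the ribosome and move it along, had 0 of 9 and a median of 0.12. Their name pattern also takes in a transcription elongation factor. Elongation factor TPM summed to 5381, 9313 and 6291 in antibiotic and 5383, 5731 and 6704 in non-treatment libraries. As with the ribosomal proteins, antibiotic replicate 2 was the highest library.

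Genes of ribosome assembly and the nucleolus, where subunits are made, had 2 of 52 called, both lower, and a median of -0.21. Over all genes tested, 7.26% were called lower and the median was -0.09. A gene like RRS1, a yeast assembly factor of the large subunit (TRINITY_DN60715_c3_g1), had 8.20, 17.9 and 13.4 TPM in antibiotic and 84.9, 64.1 and 28.2 TPM in non-treatment libraries. A gene like FTSJ3, a human factor in ribosomal RNA processing (TRINITY_DN51599_c0_g2), had 5.53, 6.36 and 6.38 TPM in antibiotic and 11.9, 15.4 and 11.1 TPM in non-treatment libraries. RNA polymerase I, which makes ribosomal RNA, had 0 of 14 called (median -0.07), and the TOR and S6 kinase pathway 0 of 10 (median 0.06).

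The mitochondrial ribosome, which is built from its own proteins, had 1 of 60 called, higher (2.88% of all genes tested were), and a median of 0.07. That gene, MRPS28 (TRINITY_DN63274_c0_g1), had 122, 121 and 133 TPM in antibiotic and 50.1, 50.9 and 52.7 TPM in non-treatment libraries. Its sum was 1807, 2290.0 and 2119 TPM in antibiotic and 1621, 1803 and 2442 TPM in non-treatment libraries. Within each group the libraries ranked as they did for the cytosolic proteins, although here non-treatment replicate 3 was the highest of all. Genes with bacterial or organellar ribosomal protein names were low, and 1 of 243 entered the test.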

How the data were processed

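RNA of 6 libraries, labelled as head, was read on an Illumina instrument. The authors deposited TPM for Trinity genes, computed from mapped fragments with length and depth corrected (featureCounts in the methods). The submitters' processing notes list FastQC, Salmon, DESeq2 and build mm10. The aligner is not given in the sources used here, nor is any version. The authors also deposited estimated counts (25397497 to 33613953 a library). These were rounded for count tests on 5 libraries, since those of antibiotic replicate 1 were not analysed here. In 2 files an extra count column repeated another library and was not used. Depth behind TPM is otherwise unknown.

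limma 3.58.1 with a mean-variance trend was fitted in R 4.3.3 to log2(TPM + 1) of all genes with a mean of at least 1 TPM in a group, with no covariate and Benjamini-Hochberg adjustment. This pseudocount understates the change of low genes. edgeR 4.0.16 (quasi-likelihood) and DESeq2 1.42.0 were alternatives, and scaling, filters, pseudocounts and single libraries were varied. Python 3.11.15 drew the figures. The fits were tested on simulated data.

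Members and lists were chosen with earlier results of these data known. Named genes were proteins of known role, the 6 most abundant, those called, the 3 largest differences each way at a group mean of 10 TPM or more, and those next to the level limit. Gene names are best protein matches. Sequences are not shown, since no sequence reference was used here.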

Additional observations from a re-analysis of the deposited data

How the results depend on the processing

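The count of 1 ribosomal protein gene called stood under most alternatives, including leaving out each library (1 to 1). It was 2 with a minimum of 5 TPM, 2 with a pseudocount of 0.1, 2 with an equal ribosomal protein total (chosen after seeing the data), 4 in edgeR without a count filter and 0 with genes summed by protein name. With the replicate block it was 2, and 2615 of all genes were called. The main fit was planned without covariates, and the replicate numbers were not taken as pairs. Over all tested genes, deviations of same-numbered libraries correlated at 0.13, -0.09 and 0.10. Those of differently numbered libraries correlated at -0.17 to 0.08. With 3 libraries a group, centred on their own mean, these values cannot settle whether the numbers are pairs. Of all genes tested 3440 were called, 2138 with no filter, 6807 in edgeR without a count filter, and 1765 to 3867 with a library left out (1765 and 1941 without antibiotic replicates 1 and 2, 2031 without antibiotic replicate 3 and 2029 without non-treatment replicate 2). The log2 ratio of summed ribosomal protein TPM was 0.12, 0.21 with median-of-ratios scaling, and -0.12 to 0.28 with a library left out, the lowest without antibiotic replicate 2. The causes were not tested. TPM carries no depth, and 3 libraries a group limit what can be detected.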

Other observations

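The 533 genes with a cytosolic ribosomal protein name under 1 TPM in both groups were examined by the species of their Swissprot match. Together they summed to 182, 52.4 and 67.0 TPM in antibiotic replicates 1, 2 and 3 and 105, 50.05 and 52.3 TPM in non-treatment replicates 1, 2 and 3. The 52 genes closest to proteins of the budding yeast Saccharomyces cerevisiae summed to 48.5, 2.88 and 3.29 TPM in antibiotic libraries and 4.82, 0.470 and 0.460 TPM in non-treatment libraries. Of these, 42 were above 0 in antibiotic replicate 1 and 8 or fewer in any other library, and 32 were above 0 in antibiotic replicate 1 alone.

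Genes closest to other fungi were spread in another way. The 39 matched to the fission yeast Schizosaccharomyces pombe summed to 9.76, 1.93 and 9.19 TPM in antibiotic and 18.6, 2.98 and 2.00 TPM in non-treatment libraries, and the 26 matched to the mould Neurospora crassa to 5.88, 1.503 and 2.49 TPM in antibiotic and 13.6, 0.296 and 0.596 TPM in non-treatment libraries. Non-treatment replicate 1 was the highest for both. The 29 low genes matched to Drosophila melanogaster, by contrast, held 4.14 to 6.43 TPM in every library. A Swissprot match names the closest protein in that database and not the organism that made the transcript.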
